A study of Mus musculus with 7 samples.

Results

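The interferon-inducible GTPases examined here were 10 genes, taken by symbol from a table of 34305 gene rows: Tgtp1, Tgtp2, Iigp1, Irgm1, Irgm2, Igtp, Ifi47, Gbp2, Gbp3 and Gbp7. All 10 had a row, and all 10 were among the 14808 genes that passed the filter on low counts. Poly(A) RNA was sequenced from mouse HSPCs (haematopoietic stem and progenitor cells), the mixed cells that give rise to blood, after culture. Cells of 3 libraries overexpressed MN1, a transcriptional co-regulator and oncogene of acute myeloid leukaemia, and cells of 3 libraries overexpressed MN1pQdel, the same protein without its polyglutamine stretch. A single library, noTD, came from cells that overexpressed neither, by its title and its overexpression label; its source name, shared by all 7 libraries, reads as transduced, and the title was followed. All 3 groups grew in serum with stem cell factor, IL-6 and IL-3 for 7 to 9 days before RNA was taken. The sources used here do not give the day of each library, the plasmid backbone and its promoter, the sorting marker, or the strain and age of the mice. The series text calls the transduced samples independent and does not name the animals behind them, so the p-values below speak only of the spread among these libraries. With no empty-vector library, transduction and the construct cannot be told apart wherever noTD is the reference.

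These genes belong to a pair of related families of large GTPases. The immunity-related GTPases (IRG proteins) and the guanylate-binding proteins (GBPs) assemble on the membrane of vacuoles that hold intracellular pathogens, where they help to break the vacuole open. Interferon gamma, through the receptor-bound kinases JAK1 and JAK2 and promoter sites called GAS, is their best known inducer, while type I interferon acts mainly through sites called ISRE. In haematopoietic stem cells the regulatory IRG protein encoded by Irgm1 is known to restrain the response to interferon.

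Of the promoters, 5 are printed because each holds the letters of both a GAS core and an ISRE core. RefSeq promoter windows (GRCm38.p6, 250 bases before to 50 after a start of transcription) were matched by symbol for 9 of the 10 genes, Gbp3 with a pair of windows. The ISRE core was searched as GAAA, any 2 bases and GAAA, and the GAS core as TTCNNNGAA, on both strands, so a match may read as the reverse complement. Each line below gives bases 120 to 21 before the start, 5′ to 3′ on the gene's strand, with the matches in capitals. The regions are chr11:48992267-48992366 (minus strand) for Tgtp1, chr11:49064233-49064332 (minus) for Tgtp2, chr11:58199436-58199535 (plus) for Igtp, chr11:58214857-58214956 (plus) for Irgm2 and chr3:142530216-142530315 (plus) for Gbp7.
Tgtp1: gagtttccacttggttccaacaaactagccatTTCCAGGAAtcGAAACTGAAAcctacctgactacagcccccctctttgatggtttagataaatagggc
Tgtp2: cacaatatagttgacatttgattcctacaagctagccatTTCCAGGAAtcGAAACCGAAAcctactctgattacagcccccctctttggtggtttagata
Igtp: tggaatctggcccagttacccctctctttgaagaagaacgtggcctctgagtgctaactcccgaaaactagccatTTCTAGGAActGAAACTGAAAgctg
Irgm2: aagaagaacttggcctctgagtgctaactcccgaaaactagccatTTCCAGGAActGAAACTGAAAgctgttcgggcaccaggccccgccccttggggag
Gbp7: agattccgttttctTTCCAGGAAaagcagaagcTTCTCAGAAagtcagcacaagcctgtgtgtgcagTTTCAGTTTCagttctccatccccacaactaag

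An ISRE core lay in a window of 8 of the 9 genes, a GAS core in 5 and both in 5. Among all 32851 windows of the same length the shares were 3.44%, 8.3% and 0.454%. In Tgtp1, Tgtp2, Igtp and Irgm2 the cores sat in the same order and spacing, written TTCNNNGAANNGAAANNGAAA, a pattern noticed after the matches were seen. That run of 21 bases occurred in 5 windows of all (0.0152%), the remaining window belonging to the predicted gene Gm12185. The copies are not independent, since 117 of 150 upstream bases of Tgtp1 (78.0%) aligned to identical bases of Tgtp2 and 111 of 150 of Igtp (74.0%) to Irgm2. Gbp7 held its ISRE core on the other strand with a pair of GAS cores further upstream. Irgm1 and Gbp3 each held 2 overlapping ISRE cores and no GAS core, Gbp2 held 1 ISRE core, and neither set of letters was in the Ifi47 window. A match is a run of letters and not a measured binding site.

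Mn1, the mouse gene of the overexpressed protein, was measured first as a check of the labels; the species of the constructs is not stated, so the counts hold only what was assigned to mouse Mn1. It stood at 314, 287 and 288 CPM (counts scaled to library depth) in MN1 replicates 1 to 3, at 691, 404 and 728 in MN1pQdel replicates 1 to 3 and at 33.6 in noTD. Every transduced library was above noTD, and Mn1 counts were lower in the MN1 than in the MN1pQdel libraries (log2 fold change -1.05, SE 0.23; edgeR, Benjamini-Hochberg adjusted p = 0.0282), so construct and counted Mn1 differ together and cannot be told apart. Library totals ran from 38210660 to 67728658 counts.

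Interferon-inducible GTPase RNA was higher in MN1 than in MN1pQdel cells. Of the 10 genes, 6 rose (Tgtp1, Tgtp2, Iigp1, Irgm1, Ifi47 and Gbp3) and 0 fell in edgeR's quasi-likelihood test with a Benjamini-Hochberg adjusted p under 0.05 over 14808 genes, where 6.08% of genes were called higher and 11.1% lower. DESeq2 called 9 higher and 0 lower, beside 13.1% of all genes higher, and at an unadjusted p under 0.05 in edgeR 9 were higher and 0 lower, beside 16.8% of all genes higher. The other 4 (Irgm2, Igtp, Gbp2 and Gbp7) had log2 fold changes between 0.86 and 1.12 and did not pass. The median log2 fold change of the 10 genes was 1.43, against -0.01 over all genes tested. In 9 of the 10 genes the 3 MN1 libraries lay above all 3 MN1pQdel libraries, a pattern found in 21.9% of all tested genes; Irgm2 was the exception. With the replicate number as a block, 8 of the 10 were called higher, beside 13.7% of all genes, because Igtp and Gbp2 then passed as well.

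**Figure D1:**
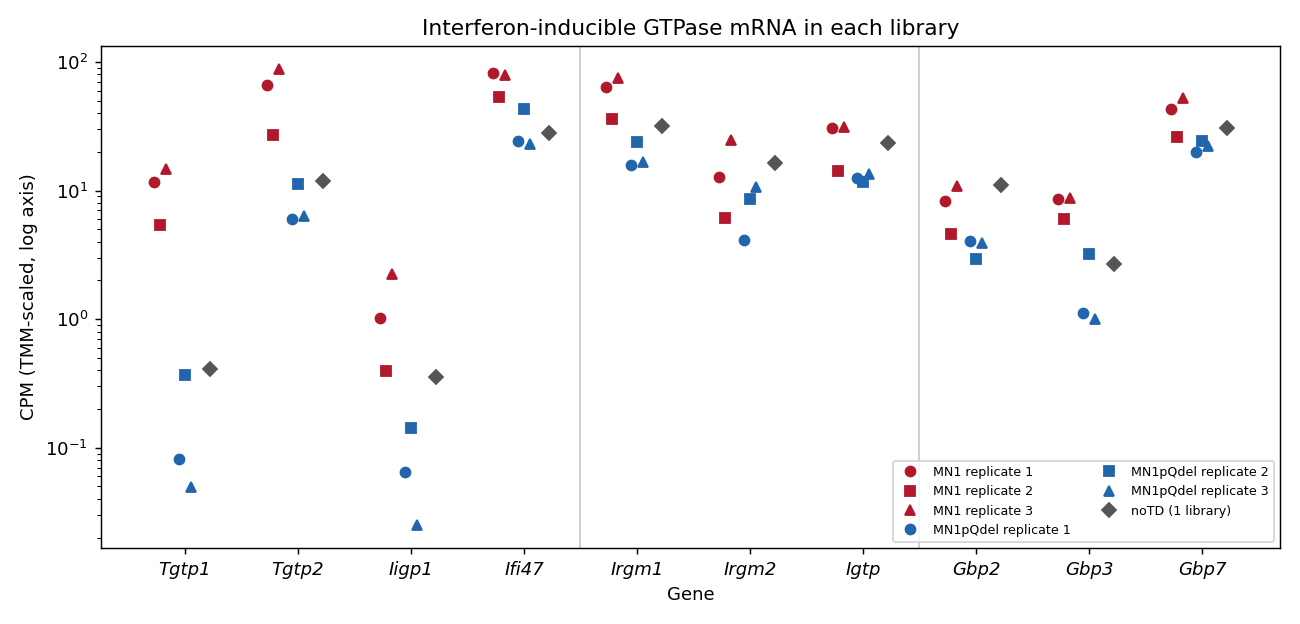
Level of each interferon-inducible GTPase in each library, in CPM on a log axis, with MN1 in red, MN1pQdel in blue and noTD in grey; each point is 1 library, with circles, squares and triangles for replicates 1 to 3. The MN1 points lie above the MN1pQdel points for every gene except Irgm2, and the lowest MN1 point is replicate 2 for all 10 genes.

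The effector IRG proteins coat the vacuole and hydrolyse GTP there. Tgtp2, on chromosome 11 (49057194 to 49064206, GRCm38, minus strand) and coding for the effector also called Irgb6, was counted at 66.4, 27.3 and 88.6 CPM in MN1 replicates 1 to 3, at 6.04, 11.3 and 6.31 in MN1pQdel replicates 1 to 3 and at 11.8 in noTD. All 3 MN1 libraries were above every other library, with replicate 2 the lowest of them. The log2 fold change was 2.94 (SE 0.47), a 7.65-fold difference with an adjusted p of 0.0125 by edgeR's quasi-likelihood test with Benjamini-Hochberg adjustment, the test behind each adjusted p that follows. Tgtp1, its near copy at 48985327 to 48994172 on the same strand, was counted at 11.6, 5.37 and 14.8 CPM in MN1, 0.0813, 0.368 and 0.0497 in MN1pQdel and 0.411 in noTD. These are 1406 counts over the MN1 libraries, 25 over the MN1pQdel libraries and 15 in noTD, so the lower groups rest on few counts. Its log2 fold change of 5.95 (SE 0.78, adjusted p = 0.00748) was the largest of the 10 genes and the rank 23 among all 14808.

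The Tgtp pair cannot be fully separated by short reads. Of the 31-base words in Tgtp1 transcripts, 83.2% also occur in Tgtp2, and 89.2% of the words of Tgtp2 occur in Tgtp1. Summed, the pair stood at 78.0, 32.6 and 103 CPM in MN1, 6.12, 11.6 and 6.36 in MN1pQdel and 12.2 in noTD, and the sum rose with a log2 fold change of 3.14 (adjusted p = 0.0106). The split between the copies also differed. Tgtp1 took 14.8%, 16.5% and 14.3% of the summed counts in MN1 replicates 1 to 3, with exact 95% binomial intervals of 13.6% to 16.1%, 14.6% to 18.5% and 13.4% to 15.4%. In MN1pQdel replicates 1 to 3 it took 1.33% (0.433% to 3.08%), 3.16% (1.89% to 4.95%) and 0.781% (0.0948% to 2.79%), and in noTD 3.36% (1.89% to 5.47%). These intervals treat each estimated count as a read of known origin. Most words are shared by the copies, so the intervals leave out the uncertainty of the assignment and are too narrow. The shares of the 2 groups did not overlap, and an exact two-sided permutation test gave p = 0.1, the smallest that 3 against 3 libraries allow. The counts were assigned by the authors' estimate, so the share is an estimated one.

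**Figure D2:**
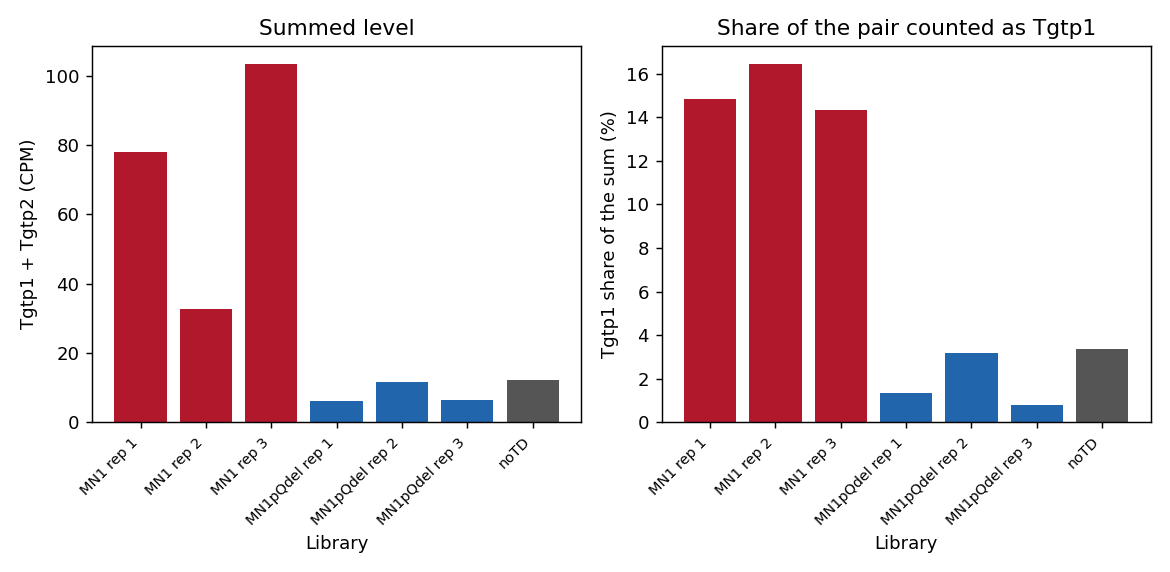
Summed level of Tgtp1 and Tgtp2 in CPM (left) and the percentage of their summed counts assigned to Tgtp1 (right), 1 bar per library, MN1 in red, MN1pQdel in blue and noTD in grey. The Tgtp1 share is between 14.3% and 16.5% in the 3 MN1 libraries and at most 3.36% in the MN1pQdel and noTD libraries. MN1 replicate 2 has the lowest summed level of the 3 and a Tgtp1 share of 16.5%.

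Iigp1 codes for Irga6, the effector studied most in structural work. It was the scarcest of the 10, at 1.02, 0.394 and 2.25 CPM in MN1, 0.0651, 0.143 and 0.0248 in MN1pQdel and 0.356 in noTD. The MN1 libraries lay above the MN1pQdel libraries on 165 against 12 counts in all, and the log2 fold change was 3.89 (SE 0.81, adjusted p = 0.0256). Ifi47, the effector Irgd (chromosome 11, 49076587 to 49096974, plus strand), was counted at 82.2, 53.7 and 79.4 CPM in MN1, 24.4, 42.9 and 22.9 in MN1pQdel and 28.3 in noTD. MN1pQdel replicate 2 came nearest to the MN1 libraries without reaching them, and the log2 fold change was 1.24 (SE 0.28, adjusted p = 0.0317). Its transcripts share 3.32% of their 31-base words with Olfr56.

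The regulatory IRG proteins sit on the cell's own membranes and keep the effectors inactive there. Irgm1 (chromosome 11, 48861968 to 48871683, minus strand) was counted at 64.3, 36.0 and 74.5 CPM in MN1, 15.7, 24.0 and 16.6 in MN1pQdel and 31.9 in noTD. All MN1 libraries were above noTD and all MN1pQdel libraries below it, and the log2 fold change was 1.62 (SE 0.30, adjusted p = 0.0186). Igtp, which codes for Irgm3 (chromosome 11, 58199556 to 58207591, plus strand), stood at 30.9, 14.1 and 31.3 CPM in MN1, 12.4, 11.7 and 13.4 in MN1pQdel and 23.6 in noTD. The groups did not overlap, but MN1 replicate 2 was within 1 CPM of the highest MN1pQdel library; the log2 fold change of 1.01 (SE 0.31) had an adjusted p of 0.0645, and of 0.0488 with the replicate number as a block. Irgm2 (58199618 to 58222782, plus strand) stood at 12.8, 6.13 and 24.7 CPM in MN1, 4.10, 8.57 and 10.7 in MN1pQdel and 16.3 in noTD. Here the groups overlapped, MN1 replicate 2 being below 2 MN1pQdel libraries, and the log2 fold change of 0.89 (SE 0.55) did not pass (adjusted p = 0.274). The annotated spans of Igtp and Irgm2 overlap on the same strand and 15.9% of the 31-base words of Igtp occur in Irgm2, so their separate levels are uncertain.

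The 3 guanylate-binding proteins, which coat vacuoles and free bacteria, lie in a cluster on chromosome 3. Gbp3 (142560026 to 142573209, plus strand) was counted at 8.58, 6.04 and 8.70 CPM in MN1, 1.11, 3.19 and 0.994 in MN1pQdel and 2.69 in noTD. It was the GBP with the largest difference, a log2 fold change of 2.13 (SE 0.49, adjusted p = 0.0325). Gbp2 (142620602 to 142638008, plus strand) stood at 8.37, 4.63 and 10.9 CPM in MN1, 4.07, 2.93 and 3.88 in MN1pQdel and 11.1 in noTD, with a log2 fold change of 1.12 (SE 0.35, adjusted p = 0.0669; 0.0327 with the replicate number as a block). Gbp2 was the only one of the 10 genes whose MN1 libraries were all below noTD. Gbp7 (142530342 to 142550149, plus strand) stood at 43.4, 25.9 and 52.7 CPM in MN1, 19.8, 24.4 and 22.4 in MN1pQdel and 30.9 in noTD. Its lowest MN1 library was close to its highest MN1pQdel library, and the log2 fold change of 0.86 (SE 0.26) did not pass (adjusted p = 0.0624).

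**Figure D3:**
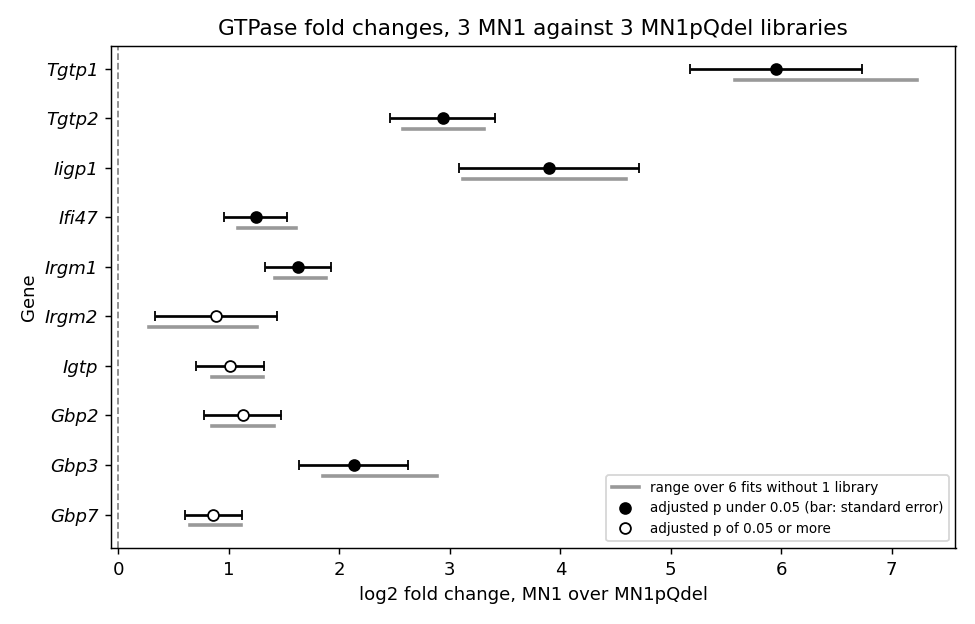
Log2 fold change of MN1 over MN1pQdel for each of the 10 genes, as a point with its standard error (black bar), with the range over the fits that each leave out 1 of the 6 libraries (grey line); filled points passed an adjusted p of 0.05. The values run from 0.86 for Gbp7 to 5.95 for Tgtp1, and the ranges all lie above 0.

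How many of the 10 genes passed depended on single libraries, although the log2 fold change stayed above 0 for all 10 in each of the 6 fits that left out 1 library. Without MN1 replicate 1, MN1 replicate 3, MN1pQdel replicate 1 or MN1pQdel replicate 3 the count of genes called higher was 2, 2, 1 and 2. Without MN1 replicate 2 it was 6 and without MN1pQdel replicate 2 it was 7. Tgtp1 passed in all 6 fits and Tgtp2 in 5, missing only without MN1pQdel replicate 1 (adjusted p = 0.0666). Iigp1 and Irgm1 passed in 2 fits, and Ifi47 and Gbp3 in 1, with log2 fold changes of 3.12 to 4.60, 1.42 to 1.88, 1.08 to 1.61 and 1.85 to 2.89 over the 6 fits.

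The libraries numbered 2 set the smallest difference for every one of the 10 genes. MN1 replicate 2 was the lowest MN1 library for 10 of 10, and MN1pQdel replicate 2 the highest MN1pQdel library for 7. Between libraries of the same number, the log2 difference in Tgtp2 was 3.45, 1.27 and 3.80 for numbers 1 to 3. For Irgm1 it was 2.03, 0.59 and 2.16, and for Gbp7 it was 1.13, 0.085 and 1.23. Irgm2 was the only gene whose difference turned negative in a pair, at 1.63, -0.48 and 1.21. Across the 7 libraries, each gene's log2 CPM was set against the mean of the other 9: Pearson's r was highest for Irgm1 at 0.999 and lowest for Irgm2 at 0.621 and Gbp2 at 0.701, a description over 7 libraries that share their groups.

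Levels were compared between genes only as CPM per kilobase of annotated exon. In MN1 cells Ifi47 was highest at 29.0 ± 6.36 CPM per kb (SD, n = 3), followed by Tgtp2, Igtp, Irgm1, Gbp7, Irgm2, Tgtp1, Gbp2, Gbp3 and Iigp1. Neighbours in this order overlapped in 8 of 9 cases, and Iigp1 alone lay clear below its neighbour. In MN1pQdel cells the order was Ifi47, Igtp, Gbp7, Irgm1, Tgtp2, Irgm2, Gbp2, Gbp3, Tgtp1 and Iigp1, with 5 of 9 neighbours overlapping. Tgtp2 had rank 2 on this scale in MN1 and rank 5 in MN1pQdel, and Tgtp1 rank 7 and rank 9.

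Against the noTD library the GTPases stood on both sides. In 6 genes all 3 MN1 libraries were above noTD, a pattern shown by 43.3% of all tested genes, and in 1 gene, Gbp2, all 3 were below, against 38.2%. In 8 genes all 3 MN1pQdel libraries were below noTD, against 16.8% of all genes, and in 0 genes were all 3 above, against 24.1%. By the group mean, 5 genes were more than 2-fold above noTD in MN1 (10.8% of all genes) and 4 were more than 2-fold below it in MN1pQdel (3.08%). No gene of the 10 was more than 2-fold below noTD in MN1 (14.9% of all genes) or above it in MN1pQdel (1.56%). Tgtp1 was at a log2 CPM difference of 4.43 in MN1 and -1.43 in MN1pQdel, and Ifi47 at 1.32 and 0.031. With 1 noTD library there is no test of these differences.

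The position relative to noTD was not the same for these 10 GTPases and for type I interferon-stimulated genes. The median log2 difference of the 10 GTPases from noTD was 1.21, 0.15 and 1.36 in MN1 replicates 1 to 3 and -1.13, -0.38 and -0.92 in MN1pQdel replicates 1 to 3. For 27 type I interferon-stimulated genes it was -0.013, -1.24 and 0.19 in MN1 and -2.36, -1.58 and -2.54 in MN1pQdel. All 3 MN1 libraries were above noTD for 3 of those 27 genes and below it for 8, beside 43.3% and 38.2% of all tested genes. All 3 MN1pQdel libraries were below it for 26, beside 16.8% of all genes. By group means, the median difference over the 15 tested IRG and GBP genes outside the 10 was -0.21 in MN1 and -1.01 in MN1pQdel. On that scale it was 1.06 and -0.86 for the 10 genes and -0.39 and -2.35 for the 27. In MN1 the median of these 15 was therefore not that of the 10, but single genes of the lists overlapped. Differences from noTD in MN1 ran from -3.21 (Irgc1) to 1.41 (Gm4951) over the 15. Over the 10 they ran from -0.56 (Gbp2) to 4.43 (Tgtp1). The differences between the lists were not tested.

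**Figure D4:**
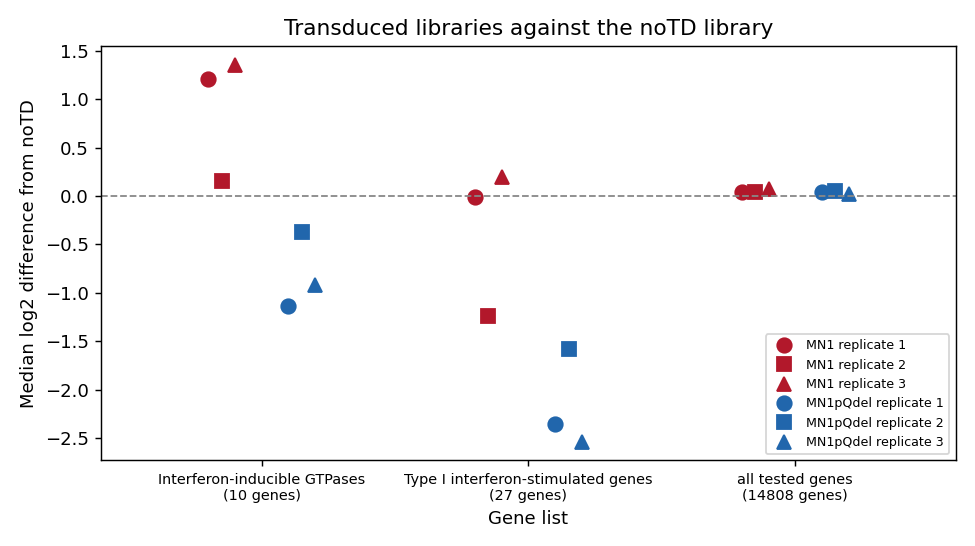
Median log2 CPM difference from the noTD library over the 10 GTPases, the 27 type I interferon-stimulated genes and all 14808 tested genes; each point is 1 transduced library, MN1 in red and MN1pQdel in blue, with circles, squares and triangles for replicates 1 to 3. The GTPase medians are above 0 in all 3 MN1 libraries, whereas the medians of the other list run from -1.24 to 0.19 there, and both lists are below 0 in all 3 MN1pQdel libraries.

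The genes that could feed this response were followed through lists of ligands, receptors, signal carriers and inhibitors. Interferon genes themselves were barely counted: of 12, 6 had 0 counts in every library and the highest single value was 5 counts. Ifng, the gene of interferon gamma, had 1 count in all, in MN1pQdel replicate 1. Ifnb1 had 3, 1 and 5 counts in the MN1 libraries, 0 in each MN1pQdel library, which at these totals allows up to 3 counts per library, and 2 in noTD. Only 3 genes of the ligand and inducing cytokine list were tested, and 0 were called in edgeR, with or without the replicate block; 2 had an unadjusted p under 0.05 (Il12a higher, Il27 lower), and DESeq2 called 1 higher. Il12a, the most abundant of them and a subunit of interleukin 12, stood at 10.1, 8.56 and 8.12 CPM in MN1 against 1.25, 5.14 and 0.721 in MN1pQdel (log2 fold change 1.91, SE 0.69, adjusted p = 0.0947).

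Receptor and kinase genes were not higher in MN1. Of 6 interferon receptor genes, 2 fell and 0 rose in edgeR, beside 11.1% and 6.08% of all genes. DESeq2 called 3 lower and 0 higher, beside 2445 lower and 1906 higher of 14516 genes. With the replicate block 3 fell and 0 rose, beside 2523 and 2022 of 14808 genes. At an unadjusted p under 0.05 in edgeR 4 were lower and 0 higher. Over all 14808 genes 5590 passed that threshold in either direction, 2484 of them higher. Ifnlr1, a chain of the interferon lambda receptor, fell by 3.03 on the log2 scale (adjusted p = 0.00733) and Ifnar2, a chain of the type I receptor, fell by 0.45 (adjusted p = 0.0264). Neither chain of the interferon gamma receptor passed, with log2 fold changes of -0.14 for Ifngr1 (adjusted p = 0.777; 0.038 with libraries scaled by their totals alone and 0.37 without MN1pQdel replicate 2) and -0.74 for Ifngr2 (adjusted p = 0.0643, and 0.0235 with the replicate number as a block). Of 14 JAK, STAT and IRF genes, 2 rose and 2 fell, beside 6.08% and 11.1% of all genes. With the block 4 rose and 3 fell, beside 2022 and 2523 of 14808 genes. Irf7, the amplifier of type I interferon production, stood at 58.1, 17.0 and 73.6 CPM in MN1, 7.74, 7.18 and 6.83 in MN1pQdel and 81.3 in noTD (log2 fold change 2.76, adjusted p = 0.0180). Batf2 rose by 2.31 (adjusted p = 0.0107), while the kinases Jak2 and Jak1 fell by 1.56 and 1.02 (adjusted p = 0.0181 and 0.0195). Irf1, a gamma-responsive factor, was at 0.18 (SE 0.22, adjusted p = 0.567).

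Among 11 inhibitors of interferon signalling, 1 rose and 2 fell, beside 6.08% and 11.1% of all genes. With the replicate block 1 rose and 5 fell, beside 2022 and 2523 of 14808 genes. Usp18, which limits the type I receptor and is itself induced by it, rose by 2.70 on the log2 scale (adjusted p = 0.0309). The phosphatases Ptpn6 and Ptpn1 fell by 0.97 and 0.56 (adjusted p = 0.00526 and 0.0181). Socs1, the main inhibitor of JAK activity in the gamma pathway, stood at 8.24, 6.94 and 29.5 CPM in MN1 and 45.6, 13.5 and 122 in MN1pQdel. Its groups overlapped and the log2 fold change was -2.04 (SE 0.88, adjusted p = 0.139; 0.0217 with the block).

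Other interferon targets were called higher more often than lower. Of 17 tested interferon gamma targets outside the GTPases, 5 rose and 0 fell, beside 6.08% and 11.1% of all genes, with a median log2 fold change of 0.64. In this list 9 were higher and 2 lower both in DESeq2 and at an unadjusted p under 0.05 in edgeR. With the replicate block 6 were higher and 2 lower. Over all genes DESeq2 called 1906 higher and 2445 lower of 14516, and the block 2022 and 2523 of 14808. In edgeR 5590 of 14808 passed an unadjusted p under 0.05 in either direction, 2484 of them higher. Cxcl10, a chemokine for T cells, rose by 2.43 (adjusted p = 0.0210), the serpin gene Serpina3f by 2.20 (adjusted p = 0.0184) and the peptide transporter Tap1 by 0.89 (adjusted p = 0.0112). Psmb8 of the immunoproteasome and the tryptophan tRNA synthetase gene Wars, named after their values were seen, rose by 0.64 and 0.46 (adjusted p = 0.0225 and 0.0437). Of 27 type I interferon-stimulated genes, 17 rose and 0 fell, beside 6.08% and 11.1% of all genes, with a median of 2.28. With the replicate block 15 rose and 1 fell, beside 13.7% of all genes higher. DESeq2 called 24 higher and 0 lower, beside 13.1% of all genes higher. At an unadjusted p under 0.05 in edgeR, 25 were higher and 0 lower, beside 16.8% of all genes higher. Mx2, another large GTPase with antiviral activity, rose by 5.04 (adjusted p = 0.00815), Rtp4 by 4.87 (adjusted p = 0.00876) and Oasl2 by 4.44 (adjusted p = 0.0129).

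Of 15 tested IRG and GBP genes outside the 10, 3 rose and 1 fell, beside 6.08% and 11.1% of all genes. With the replicate block 2 rose and 1 fell, beside 2022 and 2523 of 14808 genes. DESeq2 called 5 higher and 1 lower, beside 1906 and 2445 of 14516 genes. Gm12250, also known as the effector Irgb10 and listed in GENCODE M21 as a processed pseudogene on chromosome 11, stood at 3.37, 1.76 and 7.02 CPM in MN1 and 0.390, 1.02 and 0.398 in MN1pQdel (log2 fold change 2.73, adjusted p = 0.0336). Gm4951 rose by 2.63 (adjusted p = 0.0423). Both missed with the replicate number as a block (adjusted p = 0.0569 and 0.0607). Gbp8, named after its values were seen, rose by 1.49 (adjusted p = 0.0467). Irgc1, a testis-type IRG gene that interferon is not known to induce, stood at 0.707, 0.509 and 1.02 CPM in MN1 and 5.64, 2.66 and 6.88 in MN1pQdel, a fall of 2.77 (adjusted p = 0.0132).

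The cell machinery that works with the GTPases was not higher in MN1. The autophagy conjugation factors place IRG and GBP proteins on the right membrane. Of 10 such genes 4 fell and 0 rose in edgeR, beside 11.1% and 6.08% of all genes. With the replicate block 7 fell, beside 2523 of 14808 genes, and in DESeq2 5 fell, beside 2445 of 14516 genes. Another count, at an unadjusted p under 0.05 in edgeR, was 7 lower, and 0 were higher in each case. Over all 14808 genes 5590 passed that unadjusted threshold in either direction, 2484 of them higher. Atg7 fell by 1.21, Gabarap by 1.08 and Atg3 by 0.93 on the log2 scale (adjusted p = 0.0186, 0.0207 and 0.0132), and Atg5, named after its values were seen, by 0.55 (adjusted p = 0.0321). Of 10 inflammasome and ubiquitin partners, 2 fell and 0 rose in edgeR, beside 11.1% and 6.08% of all genes. In DESeq2 3 fell and 0 rose, beside 2445 and 1906 of 14516 genes. With the replicate block 2 fell and 0 rose, beside 2523 and 2022 of 14808 genes. At an unadjusted p under 0.05 in edgeR 5 were lower and 0 higher, where 5590 of all 14808 genes passed, 2484 of them higher. Pycard, the inflammasome adaptor, fell by 0.84 (adjusted p = 0.00682) and Gsdmd, the pore former, by 0.69 (adjusted p = 0.0368).

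These calls outside the 10 genes also moved with single libraries. Over the 9 lists 28 genes rose and 13 fell, and with 1 library left out the counts were 2 to 42 and 3 to 27. The lowest count higher came without MN1pQdel replicate 1 and the highest without MN1pQdel replicate 2. Ifnlr1, Ptpn6, Mx2 and Pycard passed in all 6 such fits.

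Cell type markers differed between the groups alongside the GTPases. Over all genes, 6.08% were called higher and 11.1% lower in MN1. All 12 neutrophil markers fell in MN1, and their summed level was 4995 to 8998 CPM in MN1, 30674 to 41478 in MN1pQdel and 42229 in noTD. Of 9 eosinophil markers 7 fell, with sums of 13.3 to 21.6 CPM in MN1 against 235 to 3647 in MN1pQdel, the lowest being MN1pQdel replicate 2. Of 12 mast cell and basophil markers 8 fell, with sums of 1454 to 3683 CPM against 3273 to 19893, replicate 2 being the lowest library in both groups. For the GTPases, replicate 2 was the lowest MN1 library in all 10 genes, but the highest MN1pQdel library in 7. Of 12 monocyte and macrophage markers 5 fell (530.4 to 570.04 CPM against 976 to 1162), and of 13 stem and multipotent progenitor markers 7 rose (1704 to 2147 against 846 to 1299.9). Log2 fold changes were positive for 8 of the 13. Cd34 was at 527 to 649.9 CPM in MN1 and 159.7 to 261 in MN1pQdel, whereas Kit, the receptor for stem cell factor, was at 311, 237 and 431 CPM in MN1 and 531, 248 and 875 in MN1pQdel, overlapping (log2 fold change -0.78, adjusted p = 0.244). In bulk RNA, fewer cells of a type and less RNA per cell cannot be told apart, and the part of these shifts in the GTPase result was not tested.

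Lymphocytes are the usual source of interferon gamma and plasmacytoid dendritic cells of type I interferon, and some of their markers were at or near 0 while others were not. Cd3e was at most 0.110 CPM in any library, Klrb1c at most 0.0488 and Siglech at most 0.342. Other T cell and natural killer markers too scarce to be tested leaned either way. Trac stood at 0.122, 0.162 and 0.318 CPM in MN1 against 0.0163, 0.0205 and 0 in MN1pQdel. Trbc1, Trbc2, Klrd1, Klrk1 and Il2rb were also higher in MN1 without overlap, a pattern found in 21.9% of all tested genes. They rest on 17, 8, 21, 18 and 27 counts over all 7 libraries. Means of Cd3e, Cd8b1, Ncr1 and Eomes were lower in MN1, with overlap. The T cell list summed to 18.1 to 21.4 CPM in MN1 and 12.5 to 18.1 in MN1pQdel (1 of 4 tested genes rose), the plasmacytoid list to 132 to 174 and 103 to 114 (1 of 8 rose and 1 fell), and the B cell list to 111 to 119 and 18.2 to 82.1 (1 of 5 rose and 1 fell). The natural killer list, which holds Gzmb, summed to 64.6 to 113 CPM in MN1 and 80.7 to 2315 in MN1pQdel (1 of 3 rose and 1 fell). The Tcf4 gene of the plasmacytoid list rose, at 41.4, 54.2 and 52.1 CPM in MN1 and 10.8, 23.3 and 7.85 in MN1pQdel (log2 fold change 1.80, adjusted p = 0.0282). In that list 7 of the 8 tested genes had a positive log2 fold change, with a median of 1.40. With the replicate block 3 of them were called higher, beside 13.7% of all genes. Ebf1 of the B cell list rose by 3.06 (adjusted p = 0.00554). Nkg7 reached 33.9 CPM and Cd3d 3.23 CPM in single libraries, without passing. Of the T cell and natural killer lists, Lck rose in MN1 (4.61, 4.42 and 5.20 CPM against 0.423, 1.80 and 0.298), as did Prf1 (4.54, 1.76 and 6.51 CPM against 0.195, 0.430 and 0.248), both of which other blood cells can also express. Gzmb, which mast cells also make, was at 73.9, 34.7 and 66.8 CPM in MN1 and at 1735, 51.8 and 2302 in MN1pQdel. The groups overlapped through MN1pQdel replicate 2, and the adjusted p was 0.0464, and 0.0757 with the replicate number as a block. The part of these genes' cells in the GTPase result was not tested.

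Outside the family, the genes whose log2 CPM over the 7 libraries was most like the mean profile of the 10 GTPases were Daxx (Pearson's r = 0.996), Rnf213 (0.991), Pimreg (0.986), Eif2ak2 (0.982) and Trim25 (0.979), chosen from genes averaging 5 CPM or more. That mean profile was higher in the MN1 than in the MN1pQdel libraries, and the genes were picked on these same libraries. A rise in MN1 was thus built into the choice, and the adjusted p-values below are not separate evidence. Rnf213, a giant ubiquitin ligase, stood at 436, 193 and 534 CPM in MN1, 79.8, 149 and 85.4 in MN1pQdel and 162 in noTD. Its log2 fold change was 1.87 (adjusted p = 0.0291, and 0.0571 with the replicate number as a block). Eif2ak2, the RNA-sensing kinase PKR, rose by 0.79 (adjusted p = 0.0430, and 0.0511 with the block), and Daxx, a histone chaperone, by 0.51 (adjusted p = 0.0302). Trim25, a ubiquitin ligase of RNA sensing, rose by 0.69 (adjusted p = 0.0313). Pimreg was at 0.39 (adjusted p = 0.0554, and 0.0492 with the block).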

How the data were processed

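Poly(A) RNA of 7 libraries (3 MN1, 3 MN1pQdel, 1 noTD, grouped by title) was read from both ends, per the labels' protocols. Estimated counts, not normalised, were deposited by the authors as a single table; kallisto, DESeq2 and the GRCm38 build are named per the submitters' processing notes, and the sources used here name no versions, transcript index or strand setting. Of the values, 32.5% were not whole (tolerance 1e-06), and all were rounded to whole numbers. Symbols turned into dates (26 rows, 0.172% of counts) stayed in the fit and are not named. Every sample column was used. Totals were 38210660 to 67728658 counts per library; rare genes such as Iigp1 are measured with little precision.

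MN1 was tested against MN1pQdel in R 4.3.3 by the quasi-likelihood test of edgeR 4.0.16, with filterByExpr, TMM scaling, group as the only term, and Benjamini-Hochberg adjustment over 14808 genes at 0.05. SE was derived from the fold change and the F statistic. CPM values were TMM-scaled over 7 libraries, and differences from noTD use a prior count of 2. Alternatives were DESeq2 1.42.0 and its size factors, scaling by totals alone, other filters, left-out libraries and a replicate block. Pearson's r between the libraries' deviations from their group means was 0.368, 0.259 and 0.320 for libraries of the same number and -0.282 to -0.0602 for others. All exceeded 0.1 for equal numbers, so the numbers were taken to pair libraries in the fits with the block, from the data alone. The main test has no term for this pairing. Deviations cancel out within a group, so the negative values are not separate evidence of pairing, and the pairing was not tested. The pipeline was tested on simulated data. No overlapping, antisense or near-identical genes can be separated with certainty.

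The 10 genes and all lists were chosen with earlier results of these data known. Named genes were the 10; Mn1, Irf1, Ifng, Ifngr1, Ifngr2 and Socs1; up to 3 called genes of each list by absolute fold change, or its most abundant tested gene; and the 5 non-members (mean of at least 5 CPM) most correlated with the mean GTPase profile. Coordinates and transcript words come from GENCODE M21 on GRCm38, and promoters from RefSeq (GRCm38.p6). Protein sequences were not analysed here, and some genes of the rule and the lists are not reported here.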

Additional observations from a re-analysis of the deposited data

How the results depend on the processing

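Over all genes, 901 were higher and 1643 lower in MN1. With DESeq2 1906 were higher, with libraries scaled by their totals alone 1847, and with the replicate number as a block 2022 were higher and 2523 lower. Leaving out 1 library gave 95 to 3146 higher and 378 to 3248 lower, 1 to 7 of the 10 GTPases higher, and 2 to 42 higher and 3 to 27 lower over the 9 pathway lists. Without the pair of libraries numbered 1, and likewise without those numbered 3, 0 genes were called in either direction by edgeR, so 0 GTPases and 0 list genes; at an unadjusted p under 0.05 there were 2386 and 2915 genes, with 6 GTPases in each case, all higher. Without the pair numbered 2, 2630 genes were higher and 2617 lower, with 9 GTPases, and 48 list genes higher and 23 lower. The 9 lists held 43 higher with DESeq2, and 28 higher and 24 lower with the block. The count of 6 GTPases higher became 9 with DESeq2 and with totals alone, 8 with the block, and 5 with a floor of 1 CPM, which left Iigp1 untested. No GTPase fold change turned negative under any alternative run. Scaling by totals alone shifted the median over all genes by 0.20 (log2) and the share of calls that were higher from 35.4% to 61.8%. Ifngr1 turned positive with totals alone (0.038), without 1 library (-0.37 to 0.37) and without the pair numbered 2 (0.30). 9930111J21Rik1 turned positive with totals alone (0.11), without 1 library (-0.26 to 0.17) and without the pair numbered 2 (0.19), and 9930111J21Rik2 with totals alone (0.19), with no filter on low counts (0.0014), without 1 library (-0.42 to 0.22) and without the pair numbered 2 (0.29). The cause of these changes was not tested. Among the genes named, the block changed no call other than those given beside them. The scarcest genes, Iigp1 and Tgtp1, rest on 12 and 25 counts over the MN1pQdel libraries, which limits how finely their fold changes are known.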

Other observations

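The IRG genes of chromosome 11 did not all differ between the groups, and the genes named here were chosen after their values were seen. 9930111J21Rik1 (48946150 to 48979398) and 9930111J21Rik2 (49015874 to 49051242) lie between Irgm1 and Tgtp2, on the same strand as these and Tgtp1. 9930111J21Rik2 was counted at 22.6, 17.3 and 40.3 CPM in MN1 replicates 1 to 3, at 17.3, 28.2 and 34.5 in MN1pQdel replicates 1 to 3 and at 34.2 in noTD. The groups overlapped. Its log2 fold change was -0.014 with an SE of 0.37 (adjusted p = 0.982 by edgeR with Benjamini-Hochberg adjustment). 9930111J21Rik1 stood at 5.98, 3.15 and 6.38 CPM in MN1 against 4.31, 5.44 and 6.68 in MN1pQdel, also overlapping, with a log2 fold change of -0.096 (SE 0.33, adjusted p = 0.851 by the same edgeR test). Gm5431 (48887422 to 48902214), between Irgm1 and 9930111J21Rik1, stood at 1.73, 1.13 and 2.63 CPM in MN1 and 0.683, 0.962 and 0.472 in MN1pQdel. Its groups did not overlap, and its log2 fold change of 1.36 (SE 0.42) had an adjusted p of 0.0665 in edgeR. Tgtp1, which lies between 9930111J21Rik1 and 9930111J21Rik2, differed by a log2 fold change of 5.95 in the same libraries. Gm12185, the other gene whose promoter window held the run of sites shared by Tgtp1, Tgtp2, Igtp and Irgm2, stood at 0.512, 0.185 and 0.424 CPM in MN1 and 0.244, 0.184 and 0.323 in MN1pQdel, overlapping, and its log2 fold change was 0.57 with an SE of 0.46 (edgeR adjusted p = 0.392).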
